A study of Mus musculus with 3 samples.

Results

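The Cyp3a enzymes and the nuclear receptors that regulate them were followed in mouse liver as 10 genes, Cyp3a11, Cyp3a13, Cyp3a16, Cyp3a25, Cyp3a41a, Cyp3a44, Nr1i2, Nr1i3, Rxra and Por, chosen by name among the 19324 genes that the platform annotation names. Every probe set whose annotation named at least 1 of them was taken. Of the 45037 probe sets other than controls, 12 did so, and they covered 9 of the 10 genes, because Por is not listed in the annotation used here. Of the 12 probe sets, 11 named 1 gene and 1 named both Cyp3a41a and Cyp3a41b.

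Liver transcripts were measured in male C57BL/6J mice given 1 of 3 diets from 6 weeks of age for 15 weeks. The HF+SFC mice ate the high-fat diet with 0.023% (w/w) of sodium ferrous citrate, an iron salt. The HF mice ate the same diet, with 60% of its energy from fat, without the salt. The Control mice ate a diet with 10% of its energy from fat and more carbohydrate in its place. All diets held some iron, all mice carried the same inbred genotype with no transgene, and food was withheld for 4 h before the tissues were taken. The age in the labels, 21 months, does not match this schedule and was not used. Each group was 1 array of material pooled over its mice, so 3 arrays were compared, with no replicates, no test and no p-value, and every number describes these 3 pools. A signal from whole liver cannot tell fewer cells of a type from less RNA per cell.

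Cyp3a proteins are cytochrome P450 monooxygenases of the endoplasmic reticulum of hepatocytes and oxidise steroids, bile acids and a wide range of drugs. NADPH-cytochrome P450 reductase, encoded by Por, passes electrons to them. Their transcription is driven largely by the pregnane X receptor (PXR, encoded by Nr1i2) and the constitutive androstane receptor (CAR, encoded by Nr1i3). Both bind DNA as heterodimers with the retinoid X receptors, of which Rxra encodes the main form in liver, at paired copies of a hexamer, and both share many target genes with each other.

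The Cyp3a genes followed here are all on chromosome 5, with Cyp3a13 apart from the others, and several are near-copies of each other in their promoters. The sequences that the probe sets target were not read here, so what each probe set separates among the Cyp3a genes was not tested. Promoter windows of 300 bases, 250 before and 50 after the transcription start, were read from RefSeq (GRCm38.p6) for all 10 genes and for Cyp3a41b. Over the whole window, Cyp3a41a and Cyp3a41b were 97.3% identical, Cyp3a16 and Cyp3a44 93.4%, Cyp3a41a and Cyp3a44 93%, and Cyp3a16 and Cyp3a41a 92.1%. Cyp3a11 stood at 75.5% with Cyp3a16 and at 53.2% with Cyp3a25. The stretch from -180 to -81 is printed here for the Cyp3a genes, 5′ to 3′ along the gene, to compare the copies where the receptor hexamers and the motif of the hepatocyte factor HNF4 lie. All are on the minus strand, Cyp3a11 at chr5:145879935-145880034, Cyp3a16 at chr5:145469804-145469903, Cyp3a41a at chr5:145720217-145720316, Cyp3a44 at chr5:145805955-145806054, Cyp3a25 at chr5:146009698-146009797 and Cyp3a13 at chr5:137921700-137921799. Capitals mark the hexamers AGGTCA and AGTTCA on either strand (TGACCT and TGAACT where they lie on the opposite strand) and the HNF4 motif CAAAGTCCA. Cyp3a41b has the same letters as Cyp3a41a here.
Cyp3a11: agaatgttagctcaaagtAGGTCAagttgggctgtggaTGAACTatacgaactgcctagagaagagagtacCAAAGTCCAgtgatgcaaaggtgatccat
Cyp3a16: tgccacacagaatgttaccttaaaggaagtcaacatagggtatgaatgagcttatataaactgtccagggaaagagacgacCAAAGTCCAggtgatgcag
Cyp3a41a: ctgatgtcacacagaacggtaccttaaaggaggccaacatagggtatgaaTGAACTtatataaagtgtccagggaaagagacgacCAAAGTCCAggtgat
Cyp3a44: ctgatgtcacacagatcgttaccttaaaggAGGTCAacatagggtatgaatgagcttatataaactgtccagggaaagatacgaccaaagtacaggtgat
Cyp3a25: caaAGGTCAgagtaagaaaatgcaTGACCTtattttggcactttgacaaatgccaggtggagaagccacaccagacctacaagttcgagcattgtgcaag
Cyp3a13: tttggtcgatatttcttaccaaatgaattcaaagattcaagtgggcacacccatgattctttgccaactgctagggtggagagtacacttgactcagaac

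The HNF4 motif matched from -109 to -101 in Cyp3a11, from -99 to -91 in Cyp3a16 and from -95 to -87 in Cyp3a41a and Cyp3a41b. Among all 32851 promoter windows of this length it was found in 0.475%, both strands searched. Cyp3a44 differed from it by the substitution C7A at the same place as in Cyp3a41a, counted from 1 at the 5′ end of the motif. AGGTCA was found once in Cyp3a11 and Cyp3a44 and in both orientations in Cyp3a25 and in 1 of the 2 windows of Rxra, against 16.3% of all promoters with a match. AGTTCA was found on the opposite strand in Cyp3a11, Cyp3a41a and Cyp3a41b, against 14% of all promoters. Pairs of these hexamers in the layouts used by PXR and CAR were searched on both strands as direct repeats spaced by 1, 3, 4 or 5 bases and as everted repeats spaced by 6 or 8. None of the 13 windows of the members and Cyp3a41b held such a pair, and 0.0822%, 0.0122%, 0.0274%, 0.0396%, 0.00913% and 0.0122% of all windows did, in that order. Only exact copies of the hexamers were counted, so a pair with a changed base in either hexamer was not found by this search. A window of this length leaves out distal elements, and a match or its lack says nothing about binding.

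**Figure D1:**
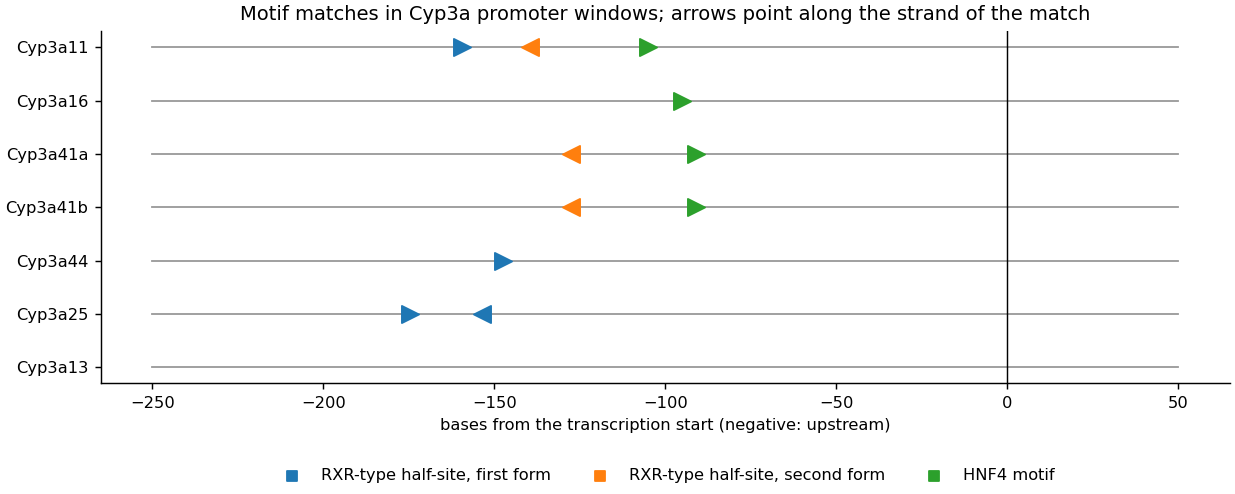
Positions of the hexamer and HNF4 motif matches in the promoter windows of 7 Cyp3a genes, 1 row per gene, in bases from the transcription start on the horizontal axis. Arrowheads mark matches and point along the strand of the match, and the HNF4 motif (green) is seen in Cyp3a11, Cyp3a16, Cyp3a41a and Cyp3a41b and not in Cyp3a44, Cyp3a25 or Cyp3a13.

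Signals are those deposited, on a linear scale, scaled by the authors to a common level per array. A probe set was kept for ratios if its geometric mean signal was 76.9 or more, the upper 50% of probe sets. Of the 12 member probe sets 9 were kept, and 8 of these lay in the upper 25%. Probe sets were not set against each other, since a signal also depends on the probes. A 1.5-fold difference, or 0.58 on the log2 scale, was used as the threshold.

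None of the 9 kept member probe sets passed 1.5-fold in any of the 3 comparisons. For HF over Control, 0 were past it higher and 0 lower, where 11.6% and 6.75% of all 22519 kept probe sets were. The counts were again 0 and 0 for HF+SFC over HF, beside 3.54% and 6.87% of all kept probe sets. They were 0 and 0 for HF+SFC over Control, beside 9.37% and 8.37%. With 9 probe sets, counts of 0 do not set the members apart from these shares. The members' median log2 ratio was -0.16 for HF over Control, 0.02 for HF+SFC over HF and -0.04 for HF+SFC over Control, and the medians of all kept probe sets were 0.02, -0.02 and -0.00302 in the same order of comparisons. Member log2 ratios ran between -0.39 and 0.57, between -0.41 and 0.34, and between -0.57 and 0.51 in that order.

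**Figure D2:**
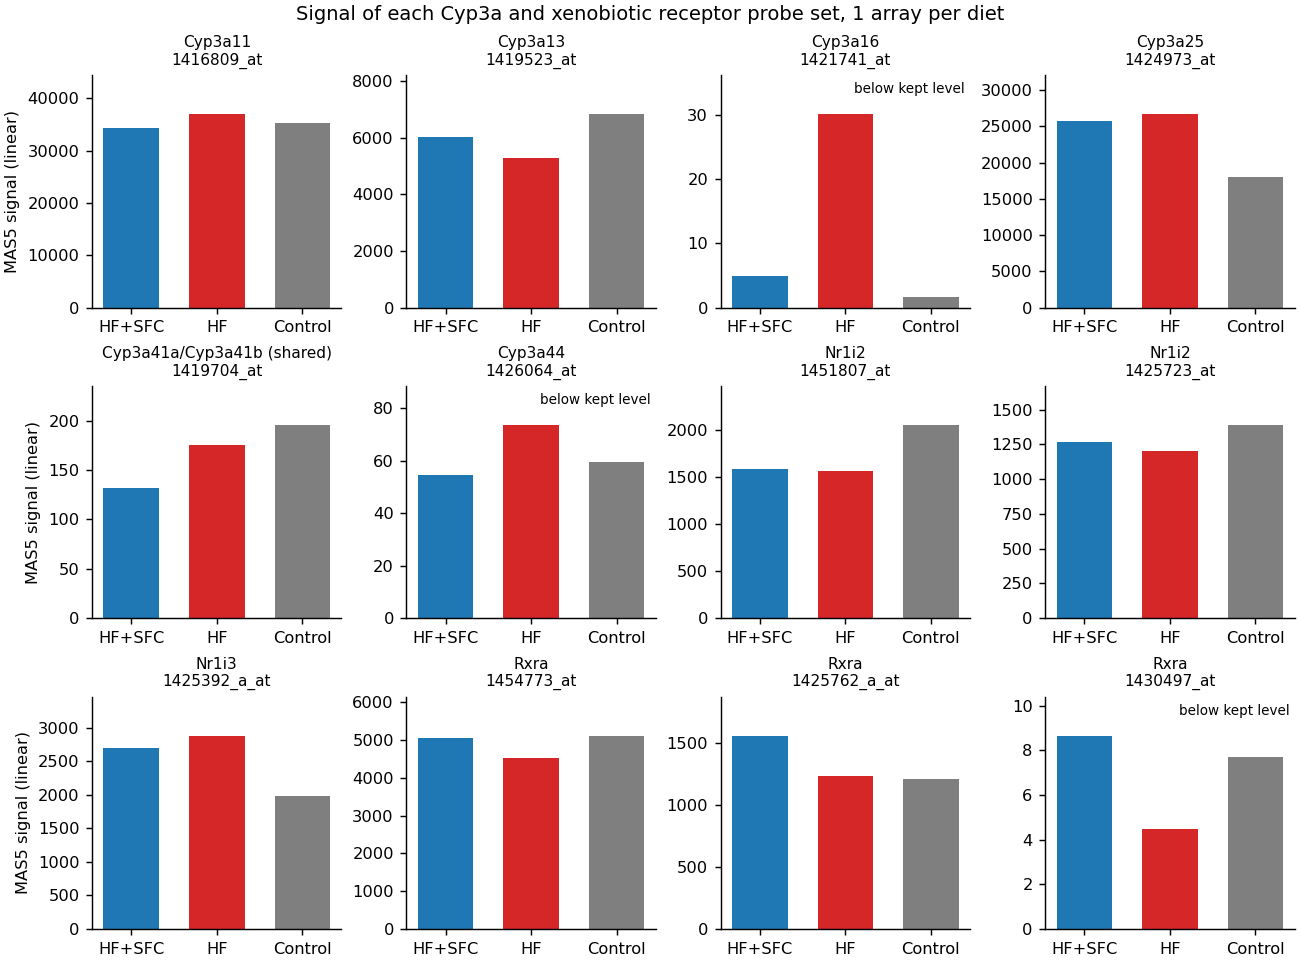
Deposited MAS5 signal of the 12 member probe sets on a linear axis from 0, with 1 bar per array and HF+SFC, HF and Control side by side. Cyp3a25 and Nr1i3 (CAR) stand higher on the HF+SFC and HF arrays than on Control, and Cyp3a11 reads 34290.5 in HF+SFC, 36954 in HF and 35221.5 in Control.

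With no replicates, the scatter of log2 ratios among probe sets of the same gene was taken as the error. In the upper 25% of signal, where 8 of the 9 kept member probe sets lie, it had an SD of 0.20 for HF over Control, 0.17 for HF+SFC over HF and 0.20 for HF+SFC over Control, over 5847 probe sets of 2354 genes. In that range 10.6% of probe sets were past 1.5-fold in either direction for HF over Control, 1.94% for HF+SFC over HF and 10.5% for HF+SFC over Control. This spread holds the noise of probes on these arrays and not the variation between mice.

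Cyp3a11, the main Cyp3a enzyme of adult mouse liver, gave 34290.5 in HF+SFC, 36954 in HF and 35221.5 in Control livers on its only probe set. The 3 arrays were nearly level. The highest signals of any probe set were 71125.5 in HF+SFC, 69903 in HF and 76090.1 in Control. Whether ratios are compressed at signals this bright was not tested. The log2 ratio was 0.07 for HF over Control, -0.11 for HF+SFC over HF and -0.04 for HF+SFC over Control, each smaller than the SD between probe sets, and the signs do not hold under other scalings, turning under median centring for HF over Control as well as HF+SFC over HF, and under lowess for HF+SFC over Control. Among 6833 genes in the upper 25% of signal, the pairs of log2 ratios nearest to that of Cyp3a11 over the 3 arrays were those of Eri1, Krr1, Togaram1, Tpp1 and Trappc1, at Euclidean distances of 0.000536 to 0.00621.

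Cyp3a25, another Cyp3a enzyme of adult liver, gave 25724 in HF+SFC and 26698 in HF livers, against 18032 in Control livers. Both high-fat arrays were above Control. The log2 ratio of HF over Control was 0.57, or 1.48-fold, the highest of the members and just inside the threshold. That of HF+SFC over Control was 0.51, or 1.43-fold. Quantile normalization and lowess each put HF over Control past the threshold, with log2 ratios of 0.68 and 0.67, and median centring gave 0.47. The HF+SFC array stood at a log2 ratio of -0.05 against HF, within the spread between probe sets, and this sign turned under median centring.

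Cyp3a13, which is expressed in intestine as well as liver, gave 6034 in HF+SFC, 5294 in HF and 6831 in Control livers. Control was the highest array and HF the lowest. The log2 ratio was -0.37 for HF over Control (1.29-fold lower), 0.19 for HF+SFC over HF (1.14-fold higher) and -0.18 for HF+SFC over Control. Its HF over Control ratio exceeded the SD between probe sets, while its HF+SFC over HF ratio was about as large as that SD.

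Cyp3a41a and Cyp3a41b share a probe set and cannot be told apart by it, and in adult mice Cyp3a41 is known for higher expression in female than in male liver. The shared probe set gave 132 in HF+SFC, 175 in HF and 196 in Control livers. The log2 ratio was -0.16 for HF over Control, -0.41 for HF+SFC over HF (1.33-fold lower) and -0.57 for HF+SFC over Control (1.48-fold lower). The last lies next to the threshold and was past it under quantile normalization, at -0.59. This is the only kept member probe set below the upper 25% of signal. Among kept probe sets in that lower range, 26.1%, 18.9% and 24.9% were past 1.5-fold in either direction for HF over Control, HF+SFC over HF and HF+SFC over Control.

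Cyp3a16, a form of fetal and newborn liver, and Cyp3a44, a form with female-biased expression, were below the kept level and are given no ratio. Cyp3a16 gave 4.87 in HF+SFC, 30.1 in HF and 1.61 in Control livers. Cyp3a44 gave 54.5 in HF+SFC, 73.7 in HF and 59.4 in Control livers. Of all probe sets below the kept level, 66.2% were past 1.5-fold in either direction for HF over Control, with 64.9% for HF+SFC over HF, so the arrays are not ordered by these signals.

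Nr1i2, which encodes PXR, was read by 2 probe sets. The brighter gave 1585 in HF+SFC, 1568 in HF and 2057 in Control livers, and the other gave 1267 in HF+SFC, 1206 in HF and 1390.0 in Control livers. Control was the highest array on both. Log2 ratios of HF over Control were -0.39 (1.31-fold lower) and -0.21, and those of HF+SFC over Control were -0.38 and -0.13. Against HF, the HF+SFC array was level on both, with log2 ratios of 0.02 and 0.07. For HF over Control the brighter probe set lay beyond the SD between probe sets and the other close to it.

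Nr1i3, which encodes CAR, gave 2689 in HF+SFC and 2879 in HF livers, against 1976 in Control livers. Both high-fat arrays were above Control, as for Cyp3a25. The log2 ratio was 0.54 for HF over Control (1.46-fold higher) and 0.44 for HF+SFC over Control (1.36-fold higher), just inside the threshold and above the SD between probe sets. HF+SFC over HF stood at -0.10, within that SD and of the other sign under median centring. Its single probe set can match several transcript forms of the gene, as its suffix marks.

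Rxra, the shared partner of both receptors, was read by 2 kept probe sets. The brighter gave 5055 in HF+SFC, 4511 in HF and 5115 in Control livers, with a log2 ratio of -0.18 for HF over Control and one of 0.16 for HF+SFC over HF, both within the SD between probe sets. The other gave 1560 in HF+SFC, 1231 in HF and 1209 in Control livers. On it the HF+SFC array was the highest, 1.27-fold above HF and 1.29-fold above Control, and HF over Control was near 0 (0.03, negative under median centring). The 2 probe sets therefore differ on HF+SFC over Control, at log2 ratios of -0.02 and 0.37, of which -0.02 changed sign under median centring. A further probe set, below the kept level, gave 8.66 in HF+SFC, 4.48 in HF and 7.68 in Control livers.

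**Figure D3:**
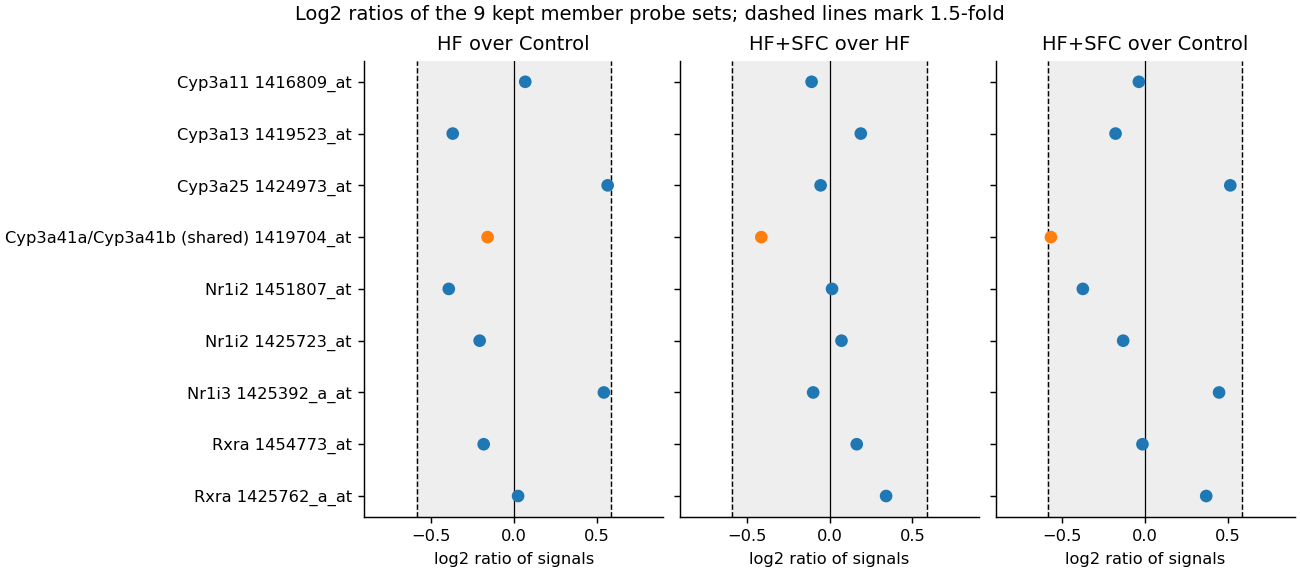
Log2 ratios of the 9 kept member probe sets in the 3 comparisons, 1 row per probe set, with the shared Cyp3a41a/Cyp3a41b probe set in orange and dashed lines at 1.5-fold. All points lie between the lines, with Cyp3a25 (0.57) and Nr1i3 (0.54) nearest to them for HF over Control and Cyp3a41a/Cyp3a41b (-0.57) for HF+SFC over Control.

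Por was not analysed here. Of the listed genes for cytochrome b5 forms, cytochrome b5 reductase and the P450 partners Pgrmc1 and Pgrmc2, all 5 were kept. None passed 1.5-fold in any comparison on its brightest probe set. Another kept probe set of Cyb5b was 1.51-fold higher for HF over Control, and another of Pgrmc2 was 1.57-fold lower for HF+SFC over Control. The median log2 ratio of the 5 genes was 0.11 for HF over Control, 0.03 for HF+SFC over HF and 0.14 for HF+SFC over Control. The middle one turned sign under quantile normalization and lowess. Cyb5a, which encodes cytochrome b5, gave 38402 in HF+SFC, 37726 in HF and 34913 in Control livers. Pgrmc1, a heme-binding partner of P450s, gave 41939 in HF+SFC, 41365 in HF and 39740.4 in Control livers.

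**Figure D4:**
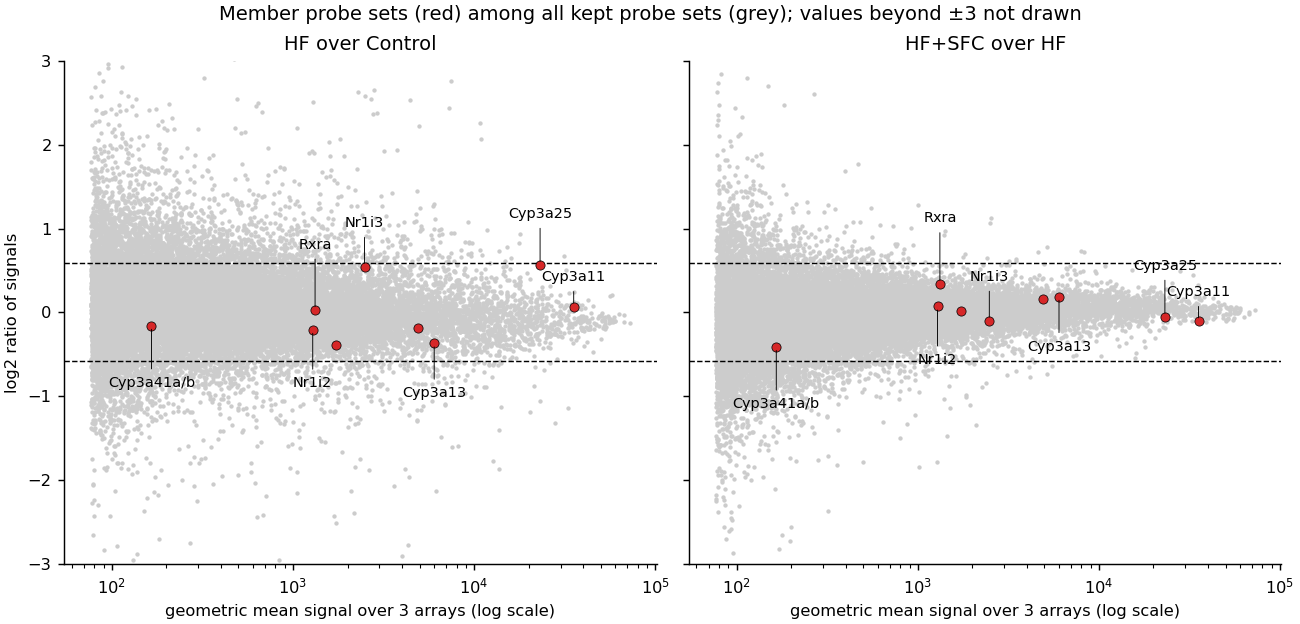
Log2 ratio of signals against geometric mean signal (log axis) for all kept probe sets (grey) and the 9 kept member probe sets (red), in the left panel for HF over Control and in the right panel for HF+SFC over HF, with dashed lines at 1.5-fold. The grey cloud narrows with signal, and in its upper 25% 10.6% of probe sets were past 1.5-fold for HF over Control, with 1.94% for HF+SFC over HF, while the red points stay between the lines.

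Other known targets of PXR and CAR were taken from a list of 40 genes, of which 36 had a probe set of their own and 33 were kept. This list and those below were chosen with earlier results of these data known. For HF over Control, 13 of the 33 were at least 1.5-fold higher and 0 lower, with a median log2 ratio of 0.37 and 28 above 0. Over all 11341 kept genes 11.3% were higher and 5.84% lower, with a median of 0.03. Of the 13, Cyp2b9, Cyp2b10 and Cyp2c39 were below the kept level on the Control array and passed the filter only through the HF+SFC and HF arrays, where they were high, so that the filter favoured their calls. In the upper 25% of signal, which still holds Cyp2b9, 9 of 28 targets were higher and 0 lower for HF over Control, with a median of 0.28, where 6.5% of all genes in that range were higher and 4.14% lower. With SFC added to the high-fat diet (HF+SFC over HF), 1 was higher and 1 lower with a median of 0.02, and all kept genes showed 2.88%, 5.33% and -0.01. For HF+SFC over Control, 15 were higher and 0 lower with a median of 0.53, and all kept genes showed 9.2%, 6.88% and 0.02. The comparisons share arrays and are not independent of each other. Median centring gave 12 targets higher and 2 lower, Alas1 and Ces2a, for HF over Control. For all kept genes it gave 980 higher and 954 lower in place of 1282 and 662 for HF over Control, and 535 higher and 397 lower in place of 327 and 605 for HF+SFC over HF.

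Of the phase I targets, which oxidise or hydrolyse their substrates, 14 were kept. Beside 11.3% higher and 5.84% lower of all kept genes, 7 of them were higher and 0 lower for HF over Control, with a median log2 ratio of 0.49. In the upper 25% of signal 4 of 11 were higher, beside 6.5% of all genes in that range, and the median was 0.11. Cyp2b9 gave 3552 in HF+SFC and 3810.0 in HF livers, against 52.8 in Control livers, a signal below the kept level, so that its log2 ratio of 6.17 for HF over Control rests on a dim value. Cyp2b10, the classical CAR target, gave 207 in HF+SFC and 249 in HF livers, against 48.5 in Control livers. Its 3 kept probe sets all had Control lowest, at signals of 48.5, 7.59 and 52.2 that are below the kept level, and differed widely in size, at 5.13-fold, 39.8-fold and 3.43-fold for HF over Control. Cyp2c39 gave 177 in HF+SFC and 243 in HF livers, against 72.0 in Control livers, and Cyp2c38 2227 in HF+SFC and 2678 in HF livers, against 915 in Control livers (2.93-fold for HF over Control).

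Among the bright phase I genes the pattern differed from gene to gene. Aldh1a1, which oxidises retinaldehyde, and its relative Aldh1a7 were 1.59-fold and 1.72-fold higher for HF over Control. Cyp2c29, which is inducible through CAR, was level, at 30371 in HF+SFC, 29646 in HF and 30998 in Control livers. Cyp2c54 was the only target at least 1.5-fold higher for HF+SFC over HF (1.65-fold), at 11646 in HF+SFC, 7066 in HF and 6980 in Control livers. Alas1, the first enzyme of heme synthesis and a target of both receptors, gave 14342 in HF+SFC, 13558 in HF and 19892 in Control livers. Its log2 ratio of HF over Control was -0.55 on this probe set and -1.18 on its other one. The probe set shared by Cyp2a4 and Cyp2a5 gave 19699 in HF+SFC, 16716 in HF and 3977 in Control livers and was 4.20-fold higher for HF over Control.

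Phase II enzymes join glutathione, sulfate or glucuronic acid to their substrates. All kept genes showed 11.3% higher and 5.84% lower for HF over Control, and 2.88% and 5.33% for HF+SFC over HF. Of 13 kept targets of this kind, 3 were higher and 0 lower for HF over Control (median 0.37), and 0 were higher and 1 lower for HF+SFC over HF (median 0.08). The 3 were glutathione S-transferases, Gstm3 at 2212 in HF+SFC and 4116 in HF livers against 1253 in Control livers, Gstt3 at 2994 in HF+SFC and 2346 in HF livers against 896 in Control livers, and Gstm2 (1.91-fold higher for HF over Control). Gstm3 was the only target at least 1.5-fold lower for HF+SFC over HF (1.86-fold), and its other kept probe set was 1.27-fold lower. The 3 probe sets that name Ugt1a1 also name other Ugt1a genes, and on these the 3 arrays were nearly level.

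Of the 6 transporters on the list, all kept, 3 were higher and 0 lower for HF over Control (median 0.67, or 1.16 when probe sets with a suffix are left out). For HF+SFC over HF 0 passed 1.5-fold (median -0.02, positive under all 3 other scalings). All kept genes showed 11.3% higher and 5.84% lower for HF over Control, and 2.88% and 5.33% for HF+SFC over HF. Slco1a4, an uptake carrier induced through PXR, gave 1959 in HF+SFC and 2044 in HF livers, against 548 in Control livers. Abcc3, an exporter of conjugates to the blood, gave 6487 in HF+SFC and 6863 in HF livers, against 2510 in Control livers. Abcb1a, the P-glycoprotein drug exporter, gave 317 in HF+SFC and 312 in HF livers, against 140 in Control livers. Abcc2 and Slco1b2 stayed within 1.5-fold on their brightest probe sets.

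**Figure D5:**
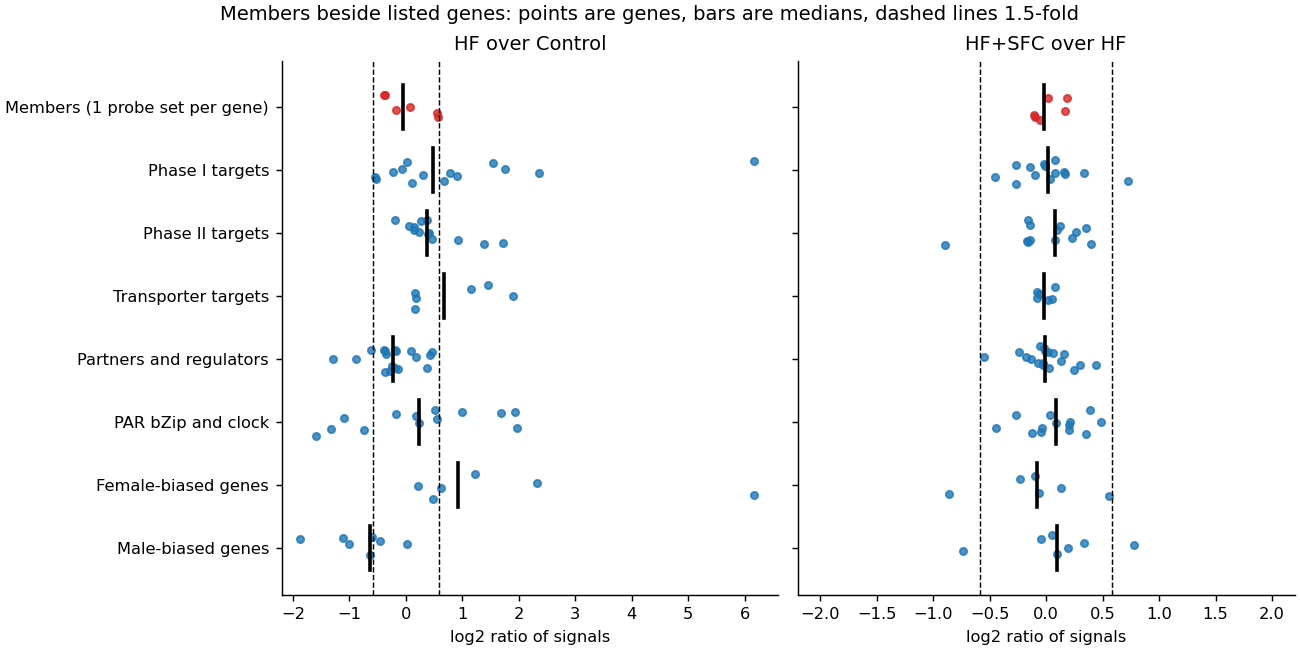
Log2 ratios for the members with a kept probe set of their own, by the brightest one (red), and for the listed genes (blue), with black bars at the medians and dashed lines at 1.5-fold. The members lie between the lines in both plots, and 13 of 33 PXR and CAR targets lie to the right of them for HF over Control, with 1 for HF+SFC over HF. The left panel shows HF over Control, the right panel HF+SFC over HF, and the scales of the axes differ.

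Of 22 partners and upstream regulators of the receptors listed, 18 were kept. Of all kept genes 11.3% were higher and 5.84% lower for HF over Control. Among these regulators 0 were higher and 3 lower, with a median log2 ratio of -0.22. These were Onecut1, Foxa2 and Hnf4a. Onecut1 (HNF6) gave 750 in HF+SFC, 553 in HF and 1349 in Control livers (2.44-fold lower for HF over Control). Foxa2 gave 1925 in HF+SFC, 1566 in HF and 2906 in Control livers (1.86-fold lower). Hnf4a gave 11107 in HF+SFC, 10144 in HF and 15524 in Control livers (1.53-fold lower). Binding of its protein to the Cyp3a promoters was not tested. The other 3 probe sets of Hnf4a were 1.18-fold to 1.41-fold lower. None passed in either direction for HF+SFC over HF, beside 2.88% higher and 5.33% lower of all kept genes. Nr0b2, which encodes the repressor SHP, gave 1425 in HF+SFC, 2091 in HF and 2707 in Control livers. It was 1.90-fold lower for HF+SFC over Control, where 0 were higher and 3 lower, beside 9.2% and 6.88% of all kept genes. Rxrb and Rxrg, the other retinoid X receptors, stayed within 1.5-fold. Each gene was counted by its brightest kept probe set. Ppargc1a was 1.38-fold higher for HF over Control on that one. Its other kept probe sets ran from 1.01-fold lower to 1.80-fold higher, and for HF+SFC over Control from 1.32-fold to 2.14-fold higher. Dimmer kept probe sets of Med1 and Hsp90aa1 reached 1.88-fold and 1.65-fold lower for HF+SFC over Control.

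The PAR bZip factors Dbp, Tef and Hlf are clock-controlled activators that act on Cyp genes and on Nr1i3. Of 14 listed genes of this group and the core clock, 13 were kept, each read by its brightest probe set. Of these 4 were higher and 4 lower for HF over Control, and 0 passed in either direction for HF+SFC over HF. All kept genes showed 11.3% higher and 5.84% lower for HF over Control, and 2.88% and 5.33% for HF+SFC over HF. Dbp gave 6891 in HF+SFC and 5398 in HF livers, against 1406 in Control livers (3.84-fold for HF over Control), and Tef 4112 in HF+SFC and 3875 in HF livers, against 1947 in Control livers (1.99-fold). Per3 and Per2 were 3.89-fold and 3.21-fold higher, and Arntl, Nfil3, Clock and Cry1 were 3.03-fold, 2.51-fold, 2.13-fold and 1.67-fold lower. The other kept probe set of Arntl went the other way, at 1.26-fold higher for HF over Control. Other kept probe sets of Per2 were 1.21-fold and 1.74-fold higher, and those of Per3 1.30-fold to 3.99-fold higher. Those of Tef were 1.12-fold and 1.79-fold higher, and those of Clock 1.70-fold and 1.59-fold lower. The part of the clock genes in the values of the Cyp3a enzymes and receptors was not tested.

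Several Cyp3a and Cyp2 genes are sex-biased in mouse liver. All kept genes showed 11.3% higher and 5.84% lower for HF over Control. Of 11 female-biased genes listed, 6 were kept, and 4 were higher and 0 lower for HF over Control (median 0.93). They were Cyp2b9, which is also on the target list, Hao2, Fmo2 and Cux2, and the calls of Cyp2b9 and Hao2 were favoured by the filter, since both were below the kept level on the Control array. Hao2 gave 389 in HF+SFC and 356 in HF livers, against 71.0 in Control livers, and Fmo2 496 in HF+SFC and 582 in HF livers, against 249 in Control livers. Of 10 male-biased genes, 7 were kept, and 0 were higher and 5 lower (median -0.63). Elovl3 gave 9091 in HF+SFC and 8770 in HF livers, against 32082 in Control livers (3.66-fold lower for HF over Control). Hsd3b5 gave 5754 in HF+SFC and 3355 in HF livers, against 7279 in Control livers. Cyp4a12a gave 3196 in HF+SFC and 5337 in HF livers, against 8059 in Control livers. For HF+SFC over HF 1 male-biased gene was higher, Hsd3b5 (1.72-fold), and 1 lower, Cyp4a12a (1.67-fold), where all kept genes showed 2.88% and 5.33%. Cux2 gave 159 in HF+SFC, 288 in HF and 187 in Control livers and was the 1 female-biased gene at least 1.5-fold lower for HF+SFC over HF (1.81-fold). The Cyp3a41a/Cyp3a41b probe set, also of female-biased genes, was lowest in HF+SFC livers too, and highest in Control livers.

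Cyp3a11, CAR and many of the targets are expressed mainly in pericentral hepatocytes. To set beside each list below, all kept genes showed 11.3% higher and 5.84% lower for HF over Control. They showed 2.88% and 5.33% for HF+SFC over HF, and 9.2% and 6.88% for HF+SFC over Control. Of 10 pericentral genes, all kept, 3 were higher and 0 lower for HF over Control (median 0.32) and 0 passed for HF+SFC over HF. Of 9 periportal genes 7 were kept, and 0 passed in any comparison. Of 10 hepatocyte markers, 9 had a probe set of their own, all kept and none past 1.5-fold in any comparison, with summed signals of 415782 in HF+SFC, 404129 in HF and 441743 in Control livers. Markers of other cells differed between the arrays. Of 15 macrophage markers, 5 were higher for HF over Control and 5 lower for HF+SFC over HF, with sums of 22107 in HF+SFC, 29431 in HF and 22192 in Control livers. Of 11 stellate cell and matrix markers, 8 were higher for HF over Control and 6 lower for HF+SFC over HF, with sums of 17442 in HF+SFC, 23490 in HF and 14875 in Control livers. All markers of both lists were kept by their mean signal, though Col1a1 gave 76.6 in Control livers, just below the kept level of 76.9. Of 9 endothelial markers, all kept, 1 was higher for HF over Control and 1 lower for HF+SFC over HF, and only 3 of 6 cholangiocyte and 1 of 8 lymphocyte markers were kept. The macrophage and stellate sums were highest in HF livers, and the part of these cells in the members' values was not tested.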

How the data were processed

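Liver cDNA of HF+SFC, HF and Control mice, mixed over the mice of each group, was the starting material for Affymetrix Mouse Genome 430 2.0 arrays, 1 array per group. The values deposited by the authors are MAS5 signal intensities on a linear scale. The authors had scaled each array to a common level, with 2% trimmed means of 495.434 in HF+SFC, 495.472 in HF and 495.198 in Control over the 45037 probe sets other than controls, so differences in total signal were removed before deposit. The version of MAS5 is not given in the sources used here, and detection calls were not used. On the log2 scale, Pearson's r over the kept probe sets was 0.983 for the HF+SFC and HF arrays, 0.968 for HF+SFC with Control and 0.967 for HF with Control. The number of arrays limits the precision.

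Gene names came from the platform annotation, where 34945 named 1 gene, 932 several and 9160 none. Ratios were log2 of deposited signals, computed with Python 3.11.15, numpy 2.4.6 and pandas 2.3.3. A gene was read through its kept probe set of highest mean log2 signal that names it alone. The text names every member with each of its probe sets, up to 4 kept genes of largest log2 ratio from each other list with further genes of known role chosen after their values were seen, and the 5 genes nearest to Cyp3a11. Members and lists were chosen with earlier results of these data known. Alternatives were quantile normalization, median centring, lowess (statsmodels 0.14.6, fraction 0.3), no filter, the upper 25% of signal, a floor at each array's median, a pseudocount of 16, the median over probe sets, leaving out suffixed probe sets, and a 2-fold threshold. The steps were tested on simulated data.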

Additional observations from a re-analysis of the deposited data

How the results depend on the processing

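No paired analysis was possible because each group has 1 array. The log2 ratios of the 9 kept member probe sets under quantile normalization, median centring and lowess made 81 values over the 3 comparisons. All lay closer to their values as deposited than the SD between probe sets of a gene over all kept ones (0.35, 0.33 and 0.36), although several crossed 0 or 1.5-fold. For median centring this was fixed in advance, since it shifts every ratio of a comparison by the same amount, smaller than these SDs. For HF over Control, 1 member was higher under quantile normalization, under lowess and without the filter, and 1 was lower without the filter. Without the filter 1 was higher and 1 lower for HF+SFC over HF. Comparing HF+SFC with Control, 1 was higher without the filter and 1 lower under quantile normalization. Without the filter the dim probe sets of Cyp3a16 and Rxra enter. Of the PXR and CAR targets, 2 were lower for HF over Control under median centring and 1 with the median over probe sets. In HF+SFC over HF, 0 were higher and 0 lower at 2-fold, 3 were lower without the filter and 0 without suffixed probe sets. Against Control, for HF+SFC, 8 were higher at 2-fold and 1 was lower with the median over probe sets. With a floor at each array's median, all signals of Cyp3a16 and of the Rxra probe set below the kept level became those medians. The 3 dim values past 1.5-fold that changed sign there are therefore log2 ratios of array medians, fixed in advance. Rxra took 0.0947 (HF over Control) and -0.118 (HF+SFC over HF), and Cyp3a16 took -0.023 (HF+SFC over Control). These values hold nothing of either gene. Median centring moved the median of all kept genes to -0.07 in HF over Control and 0.11 in HF+SFC over HF, against 0.03 and -0.01 as deposited. This shift is the same for every probe set of a comparison. In the upper 25% of signal the median of the phase I targets was 0.11 for HF over Control in place of 0.49, and without suffixed probe sets that of the transporters was 1.16 in place of 0.67. Below the kept level, signals of MAS5 are too noisy to order the arrays.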
